A study of Homo sapiens with 9 samples.

Results

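The genes described here serve the retrieval of proteins from the Golgi to the endoplasmic reticulum (ER), namely the KDEL receptors KDELR1, KDELR2 and KDELR3, the COPI coat subunits COPA, COPB1, COPB2, COPE and ARCN1, and the cargo receptors LMAN1 and TMED10. They were taken as a list of gene symbols, and all 10 were found among the 27730 gene symbols of the deposited count table. The RNA came from HUES9 cells, an established line of human embryonic stem cells that was kept on mouse feeder cells; the sample labels give passages 44 to 46, and the growth protocol gives a wider range for all experiments. The 9 libraries fall into 3 groups of 3, which the labels call independent experiments: untreated cells at day 1, cells differentiated to day 13 as embryoid bodies and then on Matrigel with 10 µM RP22, and cells differentiated in the same way to day 13 with 10 µM AA147. Per the labels, AA147 activates ATF6, which switches on genes of the unfolded protein response when ER folding is strained, and RP22 is an analog without that activity. All groups come from 1 cell line, both day 13 groups hold mixed cell types, and solvent controls were not analysed here. The question addressed is whether this gene group differed between the activator and its inactive analog, and between day 13 and day 1.

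As background, many soluble ER proteins, such as chaperones and protein disulfide isomerases, end in a KDEL-type signal. KDEL receptors bind this signal in the Golgi, where the pH is lower, and release it in the ER. The carriers that bring receptor and cargo back are coated by COPI, a complex of subunits that the small GTPase ARF1 recruits to Golgi membranes. Membrane proteins that cycle with these carriers, LMAN1 (also known as ERGIC-53) and the p24 protein TMED10 among them, can bear a signal in their cytosolic tail that the coat binds directly.

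The signals themselves are shown by the last coding bases of 4 genes, without the stop codon and with the codons of the retrieval tail in capitals, because the retrieval system is defined by them. They were read from GENCODE transcripts, release v29. HSPA5 (BiP, an HSP70 chaperone) and PDIA4 (a disulfide isomerase) encode soluble ER residents. LMAN1 and TMED10 carry lysine codons at this place.
HSPA5: gaagaggatacagcagaaAAAGATGAGTTG
PDIA4: acaaaactgagcaggaccAAGGAAGAGCTT
LMAN1: cagcaagaagcagctgccAAAAAATTCTTT
TMED10: cgcttcttcaaggccAAGAAATTGATTGAG

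Stretches of 3 promoters are shown because ATF6 and the related factor XBP1 are known to act through short motifs. The RefSeq promoter table of build GRCh38.p14, which covers 250 bases before to 50 bases after a gene's start, held 9 of the 10 genes, all but KDELR2. Both strands were searched. The motif TGACGTGG, known as UPRE, was present in 4 of the 9 promoters (KDELR3, COPA, COPB1 and COPB2), against 0.729% of 35116 promoters of the same length. It occurred 2 times in COPB2 and, in COPA, lay from base 6 to base 13 counted from the start. The element ERSE, which is CCAAT and CCACG with 9 bases between them, was in 0 of 9 and in 0.0769% of all promoters, and ERSE-II, which is ATTGG, any 1 base and CCACG, was in 0 of 9 and in 0.0541%. The CCACG of ERSE, which on the opposite strand overlaps UPRE, was present in all 9 promoters and in 38.1% of the whole table. In the stretches below the capitals mark UPRE, which reads CCACGTCA there because the match is on the opposite strand.
KDELR3, chr22:38468036-38468095, plus strand, bases -60 to -1 from the start: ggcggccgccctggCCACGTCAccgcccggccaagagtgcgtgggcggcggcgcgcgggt
COPB1, chr11:14499812-14499871, minus strand, bases -60 to -1: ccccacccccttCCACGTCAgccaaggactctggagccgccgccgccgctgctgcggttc
COPB2, chr3:139389808-139389867, minus strand, bases -220 to -161: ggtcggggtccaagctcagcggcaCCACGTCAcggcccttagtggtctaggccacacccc
These matches describe the letters only, and no binding was measured. The 4 genes with UPRE and the 5 without it were all higher with AA147 than with RP22, as described below, and a part of the motif in this was not tested.

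Total reads per library lay between 9223027 and 10118258. The TMM factors, which correct library totals for differences in composition, were 0.786 to 0.82 with AA147, 1.11 to 1.18 with RP22 and 1.08 in each day 1 library. RP22 replicate 1 stood apart from the other RP22 libraries: the chi-square per degree of freedom of its counts was 28.0 against replicate 2 and 26.9 against replicate 3, while replicates 2 and 3 gave 2.39. Of 12 markers of fibroblasts and matrix, the summed level was 34850 CPM (reads scaled to the corrected library total) in RP22 replicate 1, 14250 and 14910 in the other RP22 libraries, 72970 to 82420 with AA147 and 881.3 to 984.6 at day 1, with none of the 12 at 0 in a group. Of these 12, 6 passed the test as higher with AA147 than with RP22 and 0 as lower, beside 29.8% and 32.2% of all genes tested. COL6A3 (log2 fold change -2.58), POSTN (-2.26), DCN (-1.09) and THY1 (-0.45) lay below 0 without a call. The AA147 libraries of COL6A3 all lay below those of RP22. The 8 smooth muscle markers summed to 5200 to 5944 CPM with AA147, 738.8 to 893.5 with RP22 and 378.8 to 447.9 at day 1. The 10 pluripotency markers summed to 9556 to 10430 CPM at day 1, 1274 to 1844 with RP22 and 707 to 1067 with AA147, where NANOG was at 0. Of the 9 tested between AA147 and RP22, 7 were called lower and 1, ZFP42, higher (log2 fold change 0.51), beside 32.2% and 29.8% of all genes. PODXL, the largest part of both day 13 sums by group mean, was not called (-0.47). The 8 neuronal markers summed to 249.4 to 301.2 CPM at day 1, 946.1 to 1192 with RP22 and 499.7 to 533 with AA147. Between AA147 and RP22, 6 of them were called lower and 1, TUBB3, higher, beside 32.2% and 29.8% of all genes tested. TUBB3 made up most of the AA147 sum, at a mean of 410.6 CPM against 320.1 with RP22 (scaled within the comparison). The 8 hepatic and yolk sac markers summed to 5.86 to 9.35 CPM at day 1, 116.1 to 189.1 with RP22 and 0.965 to 6.16 with AA147. TTR and FGB were at 0 at day 1, and APOA2 and TTR with AA147. The 7 endothelial markers summed to 40.4 to 60.3 CPM at day 1, 90.1 to 188.2 with RP22 and 6.48 to 24.8 with AA147. PECAM1 was at 0 at day 1 and with AA147. The part of these shifts in cell type in the results below was not tested, and in such bulk samples more cells of a type and more RNA per cell cannot be told apart.

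Levels are given below as TMM-normalised CPM over all 9 libraries. Fold changes are from the quasi-likelihood test of edgeR on the 6 libraries of each comparison, with the SE of the log2 fold change and a p adjusted by Benjamini-Hochberg over all genes tested. The comparisons share libraries (RP22, AA147 and day 1 each enter 2 of the 3), so they are not independent of each other.

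**Figure D1:**
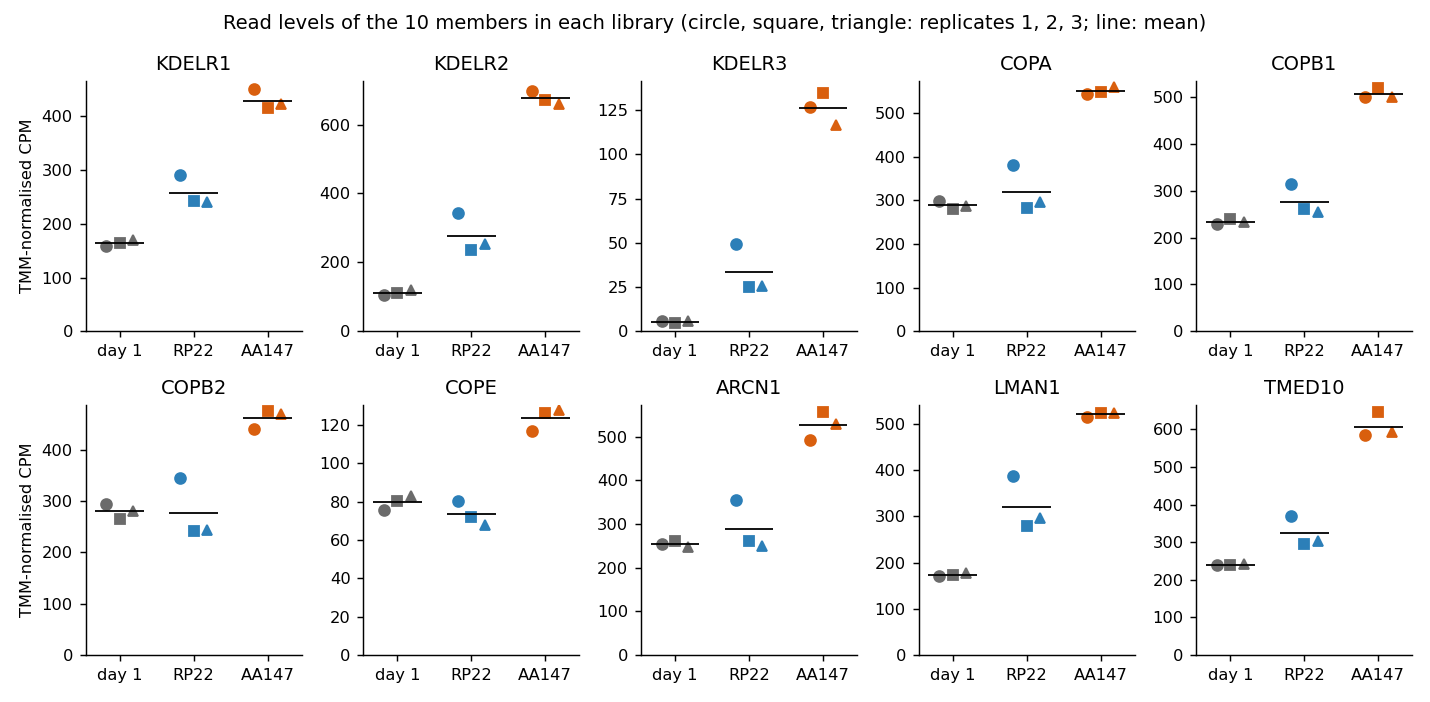
Each panel plots 1 gene, with TMM-normalised CPM on a vertical axis that starts at 0 and the 3 groups along the horizontal axis; circles, squares and triangles are replicates 1, 2 and 3, and the line is the mean of the 3. All AA147 libraries lie above all RP22 libraries in the 10 panels, and RP22 replicate 1 is the highest RP22 library in each.

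With AA147, all 10 genes were higher than with RP22 (adjusted p between 0.00021 and 0.004), whereas 29.8% of all 14293 genes tested were called higher in that comparison and 32.2% lower (62% in either direction). The log2 fold change ran from 0.62 for LMAN1 to 1.84 for KDELR3, with a median of 0.75 beside -0.03 for all genes tested. In TMM-normalised CPM the 3 AA147 libraries lay above the 3 RP22 libraries in 10 of 10 genes, as they did for 33.4% of all genes. KDELR3 lay within the top 2.29% of all genes by log2 fold change and KDELR2 within the top 6.15%, and the other 8 lay between 11.9% and 16.9%.

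KDELR3 showed the widest span of the 3 receptors. Its level was 5.76, 4.67 and 5.67 CPM in the day 1 libraries, 49.4, 25.1 and 25.3 CPM with RP22, and 126.5, 134.9 and 116.7 CPM with AA147. The groups did not overlap, and the day 1 values rest on only 62, 48 and 57 reads. KDELR3 was 3.59-fold higher with AA147 than with RP22 (log2 fold change 1.84 ± 0.28 SE, edgeR adjusted p = 0.0019). Against day 1 it was 6.17-fold higher with RP22 (log2 2.63 ± 0.31, edgeR adjusted p = 2e-04) and 23.4-fold higher with AA147 (log2 4.55 ± 0.12, edgeR adjusted p = 1.8e-09). In RP22 replicate 1 its level was 1.96 times the mean of RP22 replicates 2 and 3. Without that library the log2 fold change was 2.26 between AA147 and RP22 and 2.23 between RP22 and day 1.

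KDELR2, the second receptor, had 106.1, 111.8 and 118.2 CPM at day 1, 344, 235.4 and 253 CPM with RP22, and 696.8, 671.7 and 659.4 CPM with AA147. Here too the 3 groups were fully separated, in the same order. The log2 fold change was 1.21 ± 0.14 for AA147 against RP22 (edgeR adjusted p = 0.00023), 1.31 ± 0.14 for RP22 against day 1 (adjusted p = 9.9e-05) and 2.59 ± 0.077 for AA147 against day 1 (adjusted p = 4e-09).

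KDELR1 had the smallest fold changes of the 3 receptors. It had 158.2, 163.5 and 169.1 CPM at day 1, 290, 243.1 and 240.2 CPM with RP22, and 451.2, 414.9 and 422.4 CPM with AA147. The order of the groups was the same as for KDELR2 and KDELR3, with no overlap. Its log2 fold change was 0.66 ± 0.092 between AA147 and RP22 (edgeR adjusted p = 0.00052) and 0.65 ± 0.091 between RP22 and day 1 (adjusted p = 0.00029).

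**Figure D2:**
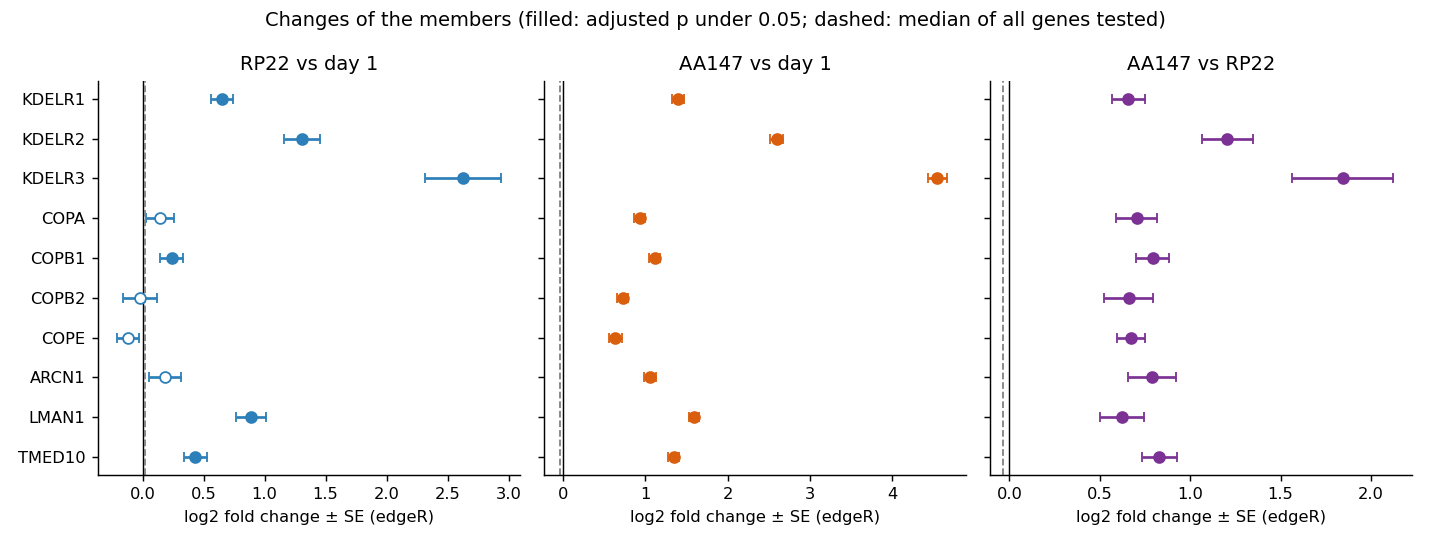
The panels give the log2 fold change (horizontal axis) of each of the 10 genes for RP22 against day 1, AA147 against day 1 and AA147 against RP22, with bars of 1 SE; filled points passed an adjusted p of 0.05 and the dashed line is the median of all genes tested. The 4 open points, COPA, COPB2, COPE and ARCN1, are all in the panel of RP22 against day 1.

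Ratios within a library do not depend on how libraries are scaled to each other, and they were taken from RPKM, in which reads are also divided by gene length, which allows genes of different length to be compared. KDELR3 made up 2.53, 1.93 and 2.14% of the summed receptor RPKM in the day 1 libraries, 8.71, 5.91 and 5.78% with RP22, and 12.2, 13.7 and 12.0% with AA147. The share of KDELR2 was 26.1 to 27.0% at day 1, 32.5 to 35.8% with RP22 and 40.1 to 40.4% with AA147. KDELR1 held 70.9 to 71.5% at day 1, 55.5 to 61.6% with RP22 and 45.9 to 47.7% with AA147. For each of the 3 shares of receptor RNA the groups did not overlap. The shares of KDELR1 and KDELR2 were not tested, and receptor protein was not measured. The log2 ratio of KDELR3 to KDELR1 was higher by 1.25 with AA147 than with RP22 and higher by 1.88 with RP22 than at day 1. Each of these differences gave an exact two-sided permutation p of 0.1, the smallest that 3 against 3 libraries allow (0.106 after adjustment over the 18 tests of this family). The length implied by count and RPKM varied between libraries from 1600 to 1728 bases for KDELR3, a span of 8.02%, which is small beside these differences.

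**Figure D3:**
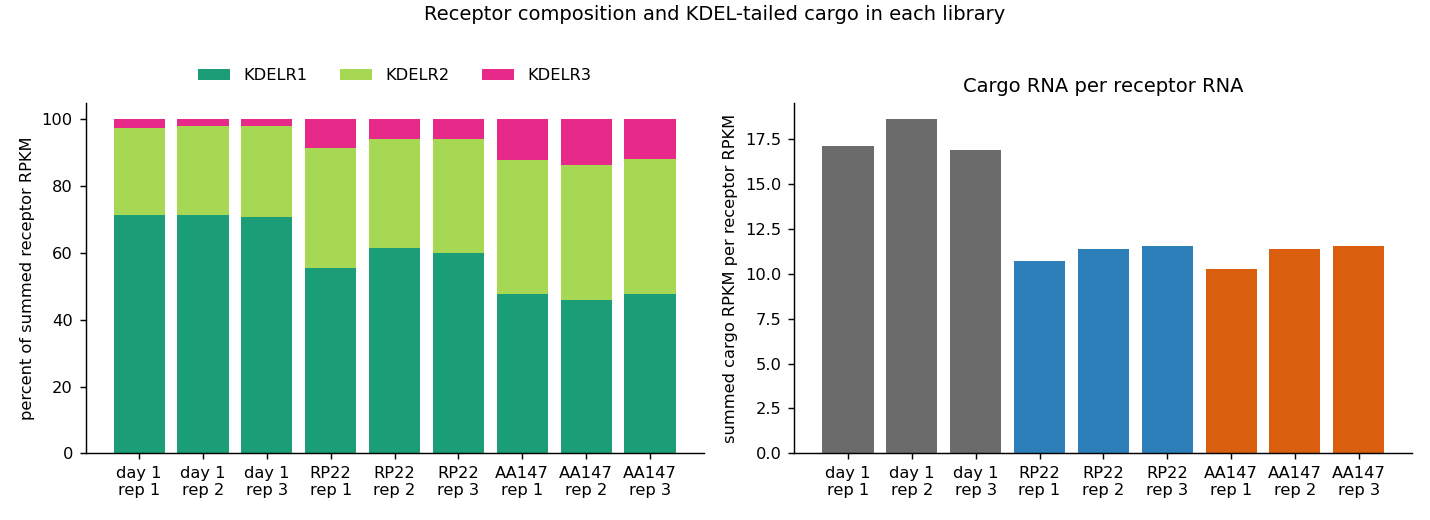
The left panel stacks the percent of the summed RPKM of the 3 receptors held by KDELR1, KDELR2 and KDELR3 in each of the 9 libraries, and the right panel gives, from 0, the summed RPKM of KDEL-tailed cargo per unit of receptor RPKM. The KDELR3 share is lowest at day 1 and highest with AA147, while cargo per receptor is 16.9 to 18.6 at day 1 and 10.3 to 11.6 in all 6 day 13 libraries.

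The 5 coat subunits moved together between AA147 and RP22 and little between RP22 and day 1. COPB1, the beta subunit, had 229.2, 240 and 233.8 CPM at day 1, 315, 261.3 and 254.8 CPM with RP22, and 500.4, 520 and 500.7 CPM with AA147. COPA, the alpha subunit, had 297.5, 279.9 and 287.5 CPM at day 1, 380.3, 282.6 and 296 CPM with RP22, and 544, 547.7 and 559.3 CPM with AA147. In both, the AA147 libraries were set apart from all others, while for COPA the RP22 and day 1 libraries overlapped. COPB2, the beta-prime subunit, had 293.4, 265.1 and 281.4 CPM at day 1, 344.7, 241.5 and 243.9 CPM with RP22, and 440.2, 476 and 469.5 CPM with AA147. ARCN1, the delta subunit, had 254.6, 260.1 and 246.2 CPM at day 1, 355, 261.7 and 249 CPM with RP22, and 493.1, 557.2 and 528.8 CPM with AA147. For both genes RP22 replicate 1 lay above every day 1 library and at least 1 of the other RP22 libraries fell within or below the day 1 range. COPE, the epsilon subunit, was the lowest of the 5 by CPM, with 75.4, 80.4 and 82.9 CPM at day 1, 80.3, 71.8 and 67.9 CPM with RP22, and 117, 126.3 and 127.5 CPM with AA147.

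Between AA147 and RP22 the coat subunits differed by a log2 fold change of 0.66 ± 0.14 (COPB2, edgeR adjusted p = 0.004) to 0.79 ± 0.091 (COPB1, adjusted p = 0.00021). COPA gave 0.70 ± 0.11 (adjusted p = 0.001), COPE 0.67 ± 0.079 (adjusted p = 0.00022) and ARCN1 0.79 ± 0.13 (adjusted p = 0.0014). Against day 1, with RP22, only COPB1 of the 5 passed the test, at 0.24 ± 0.093 (edgeR adjusted p = 0.047), beside 71.9% of all genes in either direction. The other coat subunits stood at 0.15 (COPA), -0.02 (COPB2), -0.12 (COPE) and 0.18 (ARCN1), with adjusted p between 0.24 and 0.91. Without RP22 replicate 1 the COPB1 call was lost (0.13, adjusted p = 0.11), COPB2 became lower (-0.21, adjusted p = 0.028) and COPA came to -0.00042 (adjusted p = 1). With AA147 all 5 were higher than at day 1, by 0.63 (COPE) to 1.11 (COPB1), beside 38.7% of all genes called higher.

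The 2 cargo receptors followed the KDEL receptors in that each group was separated from the next in TMM-normalised CPM. In RPKM the AA147 and RP22 libraries of LMAN1 overlapped, whereas those of the KDEL receptors did not. LMAN1, which carries glycoproteins such as coagulation factors out of the ER, had 170.8, 172.4 and 176.7 CPM at day 1, 386.7, 278.9 and 296.3 CPM with RP22, and 516.1, 524.5 and 524.2 CPM with AA147. TMED10 had 239.9, 238 and 240.6 CPM at day 1, 370.1, 295.8 and 304.4 CPM with RP22, and 584, 645.3 and 593.3 CPM with AA147. For LMAN1 the step from day 1 to RP22 (log2 0.89 ± 0.12, edgeR adjusted p = 0.00028) was followed by one of 0.62 ± 0.12 from RP22 to AA147 (adjusted p = 0.0025). For TMED10 the step to RP22 was 0.43 ± 0.095 (edgeR adjusted p = 0.0037) and that from RP22 to AA147 was 0.83 ± 0.098 (adjusted p = 0.00023). Whether the 2 genes differ in these steps was not tested.

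Of the 10 genes, 6 were higher with RP22 than at day 1 and 0 were lower, where 36.6% of 14558 genes tested were called higher and 35.2% lower (71.9% in either direction). The 6 were the 3 KDEL receptors, LMAN1, TMED10 and COPB1, and the median over the 10 was 0.33 beside 0.02 for all genes. In these same 6 genes the RP22 libraries lay above all day 1 libraries, as they did for 38.8% of all genes. With AA147 all 10 were higher than at day 1 (largest adjusted p 3.7e-05, for COPE), where 38.7% of 13761 genes were called higher (79.1% in either direction), and the libraries of the 2 groups did not overlap in any of them, as for 40.4% of all genes in that direction. The median was 1.23 there, beside -0.04 for all genes.

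Scaling mattered for the size of the AA147 effect. With library totals in place of TMM the all-gene median for AA147 against RP22 moved from -0.03 to -0.49 on the log2 scale, and 18.2% of the calls were higher in place of 48.1%. All 10 genes stayed above 0 on that scale, where 13.3% of all genes were higher and 8527 of 14293 lower, and 7 passed the test. KDELR1 (0.21, edgeR adjusted p = 0.053), COPB2 (0.21, adjusted p = 0.14) and LMAN1 (0.17, adjusted p = 0.16) did not. The median of the 10 less that of all genes was 0.78 on both scales. A change of scaling shifts all genes by about the same amount, so this difference had to stay and is no check of the result. In RPKM, which is not TMM-scaled, the AA147 libraries lay above all RP22 libraries in 8 of the 10, with COPB2 and LMAN1 overlapping. The share of all genes that did so in RPKM was not determined, so this count has no background. Against day 1 the same change of scaling moved the median of all genes for AA147 from -0.04 to -0.48. It left all 10 called, where 28.1% of all genes were called higher.

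**Figure D4:**
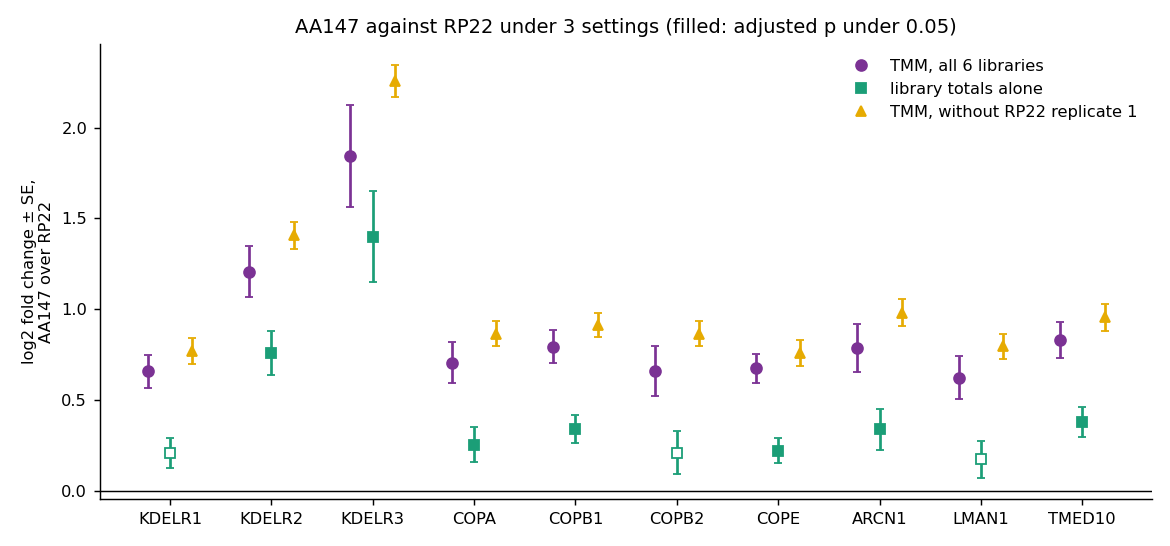
The vertical axis gives the log2 fold change of AA147 over RP22 with bars of 1 SE for each gene, with TMM on all 6 libraries (circles), with library totals alone (squares) and with TMM but without RP22 replicate 1 (triangles); filled points passed an adjusted p of 0.05. Every point lies above 0, and the 3 open squares are KDELR1, COPB2 and LMAN1.

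Compared per length by RPKM, KDELR1 was the highest and KDELR3 the lowest of the 10 genes in each of the 9 libraries. KDELR1 had a mean of 113.7 ± 3.8 RPKM (SD, n = 3) at day 1, 190.8 ± 13.7 with RP22 and 220.4 ± 15.0 with AA147. KDELR2 rose in this order from 8th place at day 1 (42.4 ± 2.3 RPKM) to 2nd with RP22 (111.6 ± 19.3) and 2nd with AA147 (188.8 ± 9.5). KDELR3 stood at 3.51 ± 0.41, 22.6 ± 8.6 and 59.2 ± 4.6 RPKM in the same groups. The ratio of the highest to the lowest group mean was 32.4 at day 1, 8.46 with RP22 and 3.72 with AA147. In each group this is the ratio of KDELR1 to KDELR3, so it does not describe the spread of the other genes. The 5 coat subunits lay within 1.495-fold to 1.79-fold of each other in each of the 9 libraries. Among them COPB2 (118 ± 2.2 RPKM) and COPB1 (115.9 ± 2.3) overlapped with AA147, as did COPB2 (101.9 ± 17.8) and ARCN1 (101.5 ± 17.5) with RP22, so their order there is not resolved.

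The other genes of the pathway were taken as a list of 38, of which 37 were in the table and 35 passed the filter on low counts. SEC22B was not matched, and TMED6 and LMAN1L were not tested. Between AA147 and RP22, 25 of the 35 were higher and 1 was lower, with a median of 0.57, where 29.8% of all genes were higher and 32.2% lower. With library totals alone 15 were higher and 6 lower, beside 13.3% of all genes higher and 8527 of 14293 lower. Against day 1, 15 were higher and 6 lower with RP22. The share higher was near the 36.6% of all genes, whereas 35.2% of all genes were lower. With AA147, 25 were higher and 3 lower than at day 1, beside 38.7% of all genes higher and 40.4% lower.

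Of the 4 remaining coat subunits 3 were higher and 1 was lower with AA147 than with RP22, beside 29.8% and 32.2% of all genes. COPG1, the first gamma subunit, was higher with AA147 than with RP22 (log2 0.92 ± 0.12, edgeR adjusted p = 0.00036), whereas its paralog COPG2 was lower (-0.39 ± 0.096, adjusted p = 0.009). COPG2 was also lower than at day 1 with RP22 (-0.65 ± 0.098) and with AA147 (-0.95 ± 0.099). COPZ2, a zeta subunit, had 0.19, 0.39 and 0.2 CPM at day 1 from 2, 4 and 2 reads, then 8.88, 2.09 and 2.01 CPM with RP22 and 14.4, 15.7 and 14.6 CPM with AA147. Its difference between AA147 and RP22 (1.72 ± 0.57, edgeR adjusted p = 0.038) lost its call in 7 of 18 alternative settings and came to 2.79 without RP22 replicate 1, the highest of the 3 RP22 libraries. Against day 1, COPZ2 was higher with RP22 (4.001 ± 0.84, edgeR adjusted p = 0.0037), and by 2.93 without that library. COPZ1, the common zeta subunit, was higher by 0.39 ± 0.073 with TMM (adjusted p = 0.0023) but stood at -0.07 with library totals alone (adjusted p = 0.39). COPG1 and COPZ1 are named to complete the coat, outside the rule by which the other genes of the list were named.

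The p24 family consists of small membrane proteins of early secretory carriers. Apart from TMED10, 7 of its 8 tested members were higher with AA147 than with RP22 and 0 lower, with a median of 1.02, beside 29.8% of all genes higher and 32.2% lower in this comparison. TMED3 (1.29 ± 0.083), TMED9 (1.28 ± 0.084) and TMED5 (1.13 ± 0.094) differed most among them, each with an edgeR adjusted p of 4.8e-05 or less. TMED3 had 164.9 ± 3.8 CPM with AA147 and 67.4 ± 6.4 with RP22 (SD, n = 3, scaled within the comparison). Of the lectins and other cargo receptors 8 of 8 tested were higher, with a median of 0.71. In the ARF1 cycle, the GTPases and their regulators that load and unload the coat, 6 of 8 were higher and 0 lower; ARF4, a GTPase related to ARF1, stood out at 1.21 ± 0.12 (edgeR adjusted p = 0.00011). Of the tether and SNARE proteins that receive the carriers at the ER, 1 of 7 was higher and 0 were lower, with a median of 0.19. That 1 gene was RINT1, named after its value was seen, at 0.36 ± 0.14 (edgeR adjusted p = 0.05 after rounding, just inside the threshold). Its call held in 6 of 18 alternative settings, and it stood at -0.09 with library totals alone (adjusted p = 0.55).

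**Figure D5:**
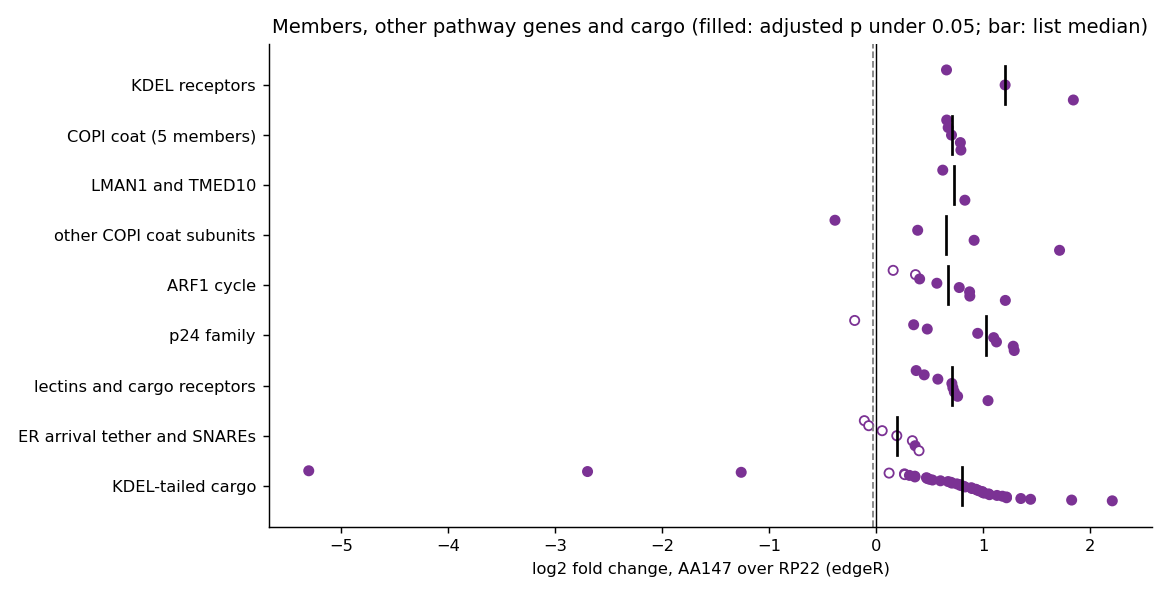
Each point is 1 gene with its log2 fold change of AA147 over RP22 on the horizontal axis, grouped by list; filled points passed an adjusted p of 0.05, the short bars are list medians and the dashed line is the median of all genes tested. The 10 genes of the first 3 lists all lie to the right of 0, the tether and SNARE list lies near 0, and 3 cargo genes lie far to the left, of which the farthest, PDIA2, rests on 1 read with AA147.

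Among the other pathway genes whose higher group averaged 5 CPM or more, the largest rises from day 1 to RP22 were those of ARFGAP3, a GTPase-activating protein for ARF1 (1.23 ± 0.11), TMED7 (0.80 ± 0.11), TMED3 (0.79 ± 0.094), SURF4, a receptor for soluble cargo (0.64 ± 0.11), and TMED5 (0.63 ± 0.092), each with an edgeR adjusted p of 0.00089 or less. The largest falls were those of ARF3 (-1.19 ± 0.079), the tether subunit ZW10 (-0.69 ± 0.091), COPG2, SCFD2 (-0.48 ± 0.12) and ARFGAP2 (-0.43 ± 0.091), each with an edgeR adjusted p of 0.0075 or less. With AA147 the largest rises against day 1 were COPZ2 (5.78 ± 0.29, from the few day 1 reads given above), ARFGAP3 (2.19 ± 0.084), TMED3 (2.16 ± 0.075), TMED5 (1.84 ± 0.080) and TMED7 (1.83 ± 0.068). ARF3 and ZW10 were lower than at day 1 with AA147 as well, by -0.54 ± 0.069 and -0.72 ± 0.090.

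The clients of the KDEL receptors were taken as the 44 genes whose coding sequence ends in codons for a KDEL-type tail. This rule uses sequence alone and does not check for entry into the ER. Of these, 43 were in the table and 40 passed the filter between AA147 and RP22. Of the 40, 34 were higher and 3 lower (median log2 fold change 0.80), beside 29.8% of all genes higher and 32.2% lower. With library totals alone 21 were higher and 4 lower, beside 13.3% of all genes higher and 8527 of 14293 lower. AL035078.4, MZB1, PDILT and PLA2G12B were not tested. Against day 1, 23 of 40 were higher and 2 lower with RP22 (median 0.48), beside 36.6% of all genes higher and 35.2% lower. With AA147, 35 of 39 were higher and 2 lower than at day 1 (median 1.32), beside 38.7% of all genes higher and 40.4% lower.

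HSPA5, whose product is the main HSP70 chaperone of the ER, was higher with AA147 than in both other groups. It had 853.3, 1111 and 946.9 CPM at day 1, 943.8, 793.1 and 840.1 CPM with RP22, and 1578, 1872 and 1862 CPM with AA147. Its day 1 and RP22 libraries overlapped (-0.18 ± 0.11, edgeR adjusted p = 0.19), although it was called lower with RP22 when replicate 1 of both groups was left out (-0.34, adjusted p = 4.8e-05). It was higher by 0.96 ± 0.10 with AA147 than with RP22 (adjusted p = 0.00012) and by 0.87 ± 0.11 than at day 1 (adjusted p = 6.1e-05). The largest differences between AA147 and RP22 by the naming rule were those of CERCAM (2.21 ± 0.12), RCN3, a calcium-binding protein (1.83 ± 0.32), P4HB, a disulfide isomerase and subunit of collagen prolyl hydroxylase (1.44 ± 0.12), PDIA5 (1.35 ± 0.15) and FKBP9, a prolyl isomerase (1.22 ± 0.10), with edgeR adjusted p from 8.1e-06 to 0.0037. P4HB was also the most abundant of these, at 1703 ± 37.7 CPM with AA147 and 625.8 ± 103.5 with RP22 (SD, n = 3, scaled within the comparison). The 3 cargo genes that were lower were COLGALT2, a collagen galactosyltransferase (-2.70 ± 0.41), FOXRED2 (-1.26 ± 0.11) and PDIA2, which had 28, 16 and 28 reads with RP22 and 0, 0 and 1 with AA147. PDIA2 lies outside the naming rule and is named because the count is small.

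Among cargo whose higher group averaged 5 CPM or more, the largest rises from day 1 to RP22 were those of CERCAM (4.83 ± 0.20), FKBP9 (3.66 ± 0.15), FKBP7 (2.87 ± 0.28), COLGALT2 (2.44 ± 0.41) and FKBP14 (2.31 ± 0.30), with an edgeR adjusted p of 0.0014 or less. ERP29 (-1.11 ± 0.080) and CNPY2 (-0.44 ± 0.090) were the 2 that fell. CERCAM (7.11 ± 0.14) and FKBP9 (4.96 ± 0.10) led the rises from day 1 to AA147 too, and FOXRED2 (-1.18 ± 0.12) and ERP29 (-0.66 ± 0.084) fell.

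Receptor and cargo RNA were finally set against each other within each library. The summed RPKM of the cargo genes per unit of summed receptor RPKM was 17.1, 18.6 and 16.9 at day 1, 10.7, 11.4 and 11.6 with RP22, and 10.3, 11.4 and 11.5 with AA147. All 6 day 13 libraries lay below all day 1 libraries, and the RP22 and AA147 libraries overlapped. The log2 ratio of receptors to cargo was 0.64 higher with RP22 than at day 1 (exact permutation p = 0.1, the smallest possible) and 0.02 higher with AA147 than with RP22 (exact permutation p = 0.7). Its SD over the 3 libraries was 0.056 with RP22 and 0.091 with AA147. The difference between AA147 and RP22 was thus smaller than the spread of the libraries, which with 3 against 3 libraries does not show that the ratios are equal. Against the 5 coat subunits, in contrast, the receptors were higher by 0.25 on the log2 scale with AA147 than with RP22 and by 0.86 with RP22 than at day 1, with no overlap (exact permutation p = 0.1 for each).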

How the data were processed

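Tables deposited by the authors were used, 1 of expected counts (estimated reads per gene, unscaled) and 1 of RPKM values. The submitters' processing notes name build GRCh37.p13. The aligner, the counter and the way reads shared by paralogs were split were not given in the sources used here. The floor value of 0.05 in the count table was read as 0, fractions (0.914% of cells) were rounded and duplicate symbols were summed, leaving 27730 of 27772 rows. Reads from mouse feeder cells could not be separated. The test was that of edgeR 4.0.16 under R 4.3.3 (filterByExpr, TMM, robust quasi-likelihood F test, group as the only term, 6 libraries per comparison, Benjamini-Hochberg over all genes tested, threshold 0.05). The SE is the absolute log2 fold change divided by the square root of F. The procedure was tested on simulated data in which few genes were changed, up or down at random. That simulation could not test the scaling between libraries, because it held no shift in composition. With 9223027 to 10118258 reads per library, depth limits mainly the genes with few reads. P-values rest on the labels' statement of independent experiments.

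The cargo list was read from coding sequences of GENCODE v29 (build GRCh38), in place of protein sequences; promoters are from RefSeq on GRCh38.p14, and no coordinate was converted between builds. Among the other genes, the rule for naming took from the pathway list and from the cargo list, for each comparison, the 5 genes that rose most and the 5 that fell most past the test, given a mean of 5 CPM in the higher group; exceptions are stated. The members and lists were chosen with earlier results of these data known. Alternatives were DESeq2 1.42.0, limma-voom and limma 3.58.1 on log2 RPKM, other size factors, no count filter, 1 fit of all 9 libraries, a replicate block and leaving out libraries.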

Additional observations from a re-analysis of the deposited data

How the results depend on the processing

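Between AA147 and RP22 and between AA147 and day 1, the 10 members kept their direction in each of the 18 alternatives, and calls were lost only on scales without TMM (library totals or RPKM), for KDELR1, COPB2 and LMAN1. Between RP22 and day 1, COPB2 was above 0 with DESeq2 (0.00305), DESeq2 size factors (0.00303), library totals (0.07207) and limma on log2 RPKM with a pseudocount of 1 (0.05796, with and without a filter) or 0.1 (0.05838), and ran from -0.2116 to 0.069 when 1 library was left out; COPA ran from -0.00042 to 0.227. Members called lower there were 0 to 1 when 1 library was left out (1 without RP22 replicate 1), 2 without replicate 1 of both groups and 2 in a fit, added after seeing the data, of all groups without their replicate 1. COPB1 lost its call there in 10 of 18 alternatives. Between AA147 and RP22, COPZ1 fell below 0 with library totals (-0.06586) and in RPKM (-0.08669, -0.08787 and, unfiltered, -0.08669), as did RINT1 (-0.0866, then -0.07128, -0.07625 and -0.07128). The cargo median between AA147 and RP22 was 0.353 with library totals, 0.3759, 0.38 and, unfiltered, 0.3695 in RPKM, 0.7517 to 0.9537 with 1 library left out (the latter without RP22 replicate 1) and 1.004 in the added fit. Between RP22 and day 1 it was 0.1951 for tails that read KDEL exactly, against 0.48 for all tails. Between AA147 and day 1 it was 0.8816 with library totals, 1.125 with no count filter, 0.8757, 0.8772 and, unfiltered, 0.7534 in RPKM, and 1.133 for KDEL alone, against 1.32 as reported. The cause of these moves was not tested. A replicate block left 10, 5 and 10 members higher in the comparisons of AA147 with RP22, RP22 with day 1 and AA147 with day 1. Of all genes 28.9%, 35.5% and 38.6% were higher there. In the first, 4126 genes were higher and 4548 lower, against 4265 and 4600 without the block. Same-numbered libraries of AA147 and RP22 correlated at 0.191, 0.153 and 0.0633 in their deviations, and differently numbered ones at -0.197 to 0.109. These values do not exclude a pairing. The numbers were not treated as pairs in the main test because the labels name no shared day for a number. No within-library ratio moved beyond the spread of the libraries. Genes with few reads, such as KDELR3 and COPZ2 at day 1, are limited by depth.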
